A study of Rattus norvegicus with 12 samples.

Results

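The genes described here are 44 genes of the skeletal muscle sarcomere and of its calcium handling, measured by RNA sequencing in wound tissue of diabetic rats. They were taken by gene symbol from a fixed list, which was chosen with earlier results of these data known. All 44 were found among the 25620 genes of the count table. Of the 44 genes, 13 belong mainly to fast fibres, 9 mainly to slow fibres, and 22 to both fibre kinds. The study asked how dressings made from snail mucus acted on chronic wounds. Streptozotocin made male SD rats diabetic, each rat received a full-thickness punch wound on the back, and all groups share these steps. The control wounds received normal saline, the d-SMG wounds the dried mucus gel of the snail *A. fulica*, the s-GAG wounds the sulfated glycosaminoglycan of that gel, and the Alg wounds a commercial alginate dressing. Wound tissue, labelled as skin, was sequenced on day 3, 7, and 14 with 1 library per treatment and day, 12 libraries altogether, and whether a library pooled several rats is not stated in the sources used here.

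Striated muscle contracts when myosin of the thick filament pulls on actin of the thin filament. Calcium leaves the sarcoplasmic reticulum through the ryanodine receptor, binds troponin C, and moves tropomyosin off the myosin sites of actin, and a calcium pump then returns it. Fast and slow fibres build the same machine from different paralogs of troponin, myosin light chain, myosin-binding protein C, myozenin, and calsequestrin. The back skin of rats carries a thin sheet of striated muscle, the panniculus carnosus, below the dermis, and a full-thickness wound reaches that layer.

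The promoter sequences of 4 genes are shown because these genes mark the patterns followed below, namely a gene of both fibre kinds, a fast fibre gene, and 2 slow fibre genes whose levels parted from the rest. Each is the stretch of 250 bases before the transcription start of RefSeq on the rat build GRCr8, written 5′ to 3′ on the strand of the gene. Capitals mark an E-box (CANNTG, which myogenic factors such as MyoD can bind), a TATAAA box, or a CArG box (bound by the serum response factor). Both strands were searched, and a MEF2 motif was searched as well but was found in none of these 4 stretches.
Acta1 (skeletal alpha-actin; GRCr8 chr19:68784195-68784444, minus strand): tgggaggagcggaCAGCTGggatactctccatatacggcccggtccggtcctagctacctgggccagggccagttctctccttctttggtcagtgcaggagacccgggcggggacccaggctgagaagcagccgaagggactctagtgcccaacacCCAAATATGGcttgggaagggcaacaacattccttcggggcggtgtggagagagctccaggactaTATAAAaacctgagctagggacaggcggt
Tnni2 (fast troponin I; GRCr8 chr1:207024240-207024489, plus strand): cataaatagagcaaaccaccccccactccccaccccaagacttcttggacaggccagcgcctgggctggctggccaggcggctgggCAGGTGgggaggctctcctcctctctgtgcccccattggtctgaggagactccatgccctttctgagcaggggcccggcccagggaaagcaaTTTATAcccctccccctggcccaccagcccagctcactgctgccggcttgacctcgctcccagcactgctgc
Tnnt1 (slow troponin T; GRCr8 chr1:78348785-78349034, plus strand): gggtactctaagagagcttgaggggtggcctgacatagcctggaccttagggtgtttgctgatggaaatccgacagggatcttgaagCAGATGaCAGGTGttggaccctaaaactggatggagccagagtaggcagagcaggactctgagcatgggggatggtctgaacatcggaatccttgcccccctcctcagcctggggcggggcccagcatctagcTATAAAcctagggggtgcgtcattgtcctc
Myl3 (slow myosin essential light chain; GRCr8 chr8:119616844-119617093, plus strand): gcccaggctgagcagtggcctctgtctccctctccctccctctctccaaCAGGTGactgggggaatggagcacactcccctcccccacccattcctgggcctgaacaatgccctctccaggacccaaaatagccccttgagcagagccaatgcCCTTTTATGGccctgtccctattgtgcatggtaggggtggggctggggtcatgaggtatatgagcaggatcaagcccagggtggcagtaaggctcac

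The RefSeq promoter table held 39 start sites of 34 of the 44 genes. An E-box was found in 33 of these 39 stretches (84.6%), compared with 65.5% of all 33469 stretches of the same length. A MEF2 motif occurred in 7 member stretches (17.9%, against 2.96% of all), a CArG box in 3 (7.69%, against 1.497%), and TATAAA in 7 (17.9%, against 12.9%), and a MEF2 match can overlap a TATAAA match. The genes with a MEF2 motif were Casq2, Cav3, Myl1, Myoz1, Myoz2, Ttn, and Xirp2, and those with a CArG box were Acta1, Ldb3, and Myl3. These matches describe letters only, and no binding was measured in these libraries. An E-box occurred in 10 of 11 stretches of fast and 7 of 9 stretches of slow fibre genes.

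The libraries held 13748887 to 38302461 reads on genes. Markers of other cell types differed widely between them, with summed keratinocyte markers between 61.5 (d-SMG, day 3) and 40381 CPM (s-GAG, day 14) and hair follicle markers between 26.3 and 44135. CPM are reads scaled to a library of 1000000 reads after TMM normalization, and such levels are compared between libraries and not between genes, since longer transcripts gather more reads. The d-SMG library of day 3 thus held very little signal of epidermis although it is labelled as skin. The s-GAG library of day 14 stood apart by transcript length, since genes under 1 kb lay 1.36 above and genes over 8 kb 0.89 below their mean over the libraries (log2), while the other 11 libraries stayed between -0.45 and 0.35 in these 2 classes. In tissue pieces of this kind, fewer muscle cells and less RNA per muscle cell cannot be told apart.

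The 44 genes took between 1.17% and 17.3% of all gene reads, and the differences followed no steady order of treatments. In the control wounds, they accounted for 7.61%, 5.18%, and 6.18% of the reads on day 3, 7, and 14, respectively, a 1.47-fold range. With d-SMG the share was 17.3% on day 3, 1.17% on day 7, and 1.61% on day 14. With s-GAG it was 5.01%, 4.70%, and 11.2%, and with Alg it was 5.497%, 10.04%, and 1.63%. Therefore, the largest share moved from d-SMG on day 3 to Alg on day 7 and to s-GAG on day 14. The exact binomial 95% intervals of these shares were at most 0.0362 percentage points wide, but they cover the counting error only and not the spread between rats. Reads on the 13 fast fibre genes made up 7.57% of the d-SMG library of day 3 and 0.319% of that of day 7, while the 9 slow fibre genes stayed between 0.129% and 0.271% in all libraries. Of the slow reads, between 23.6% and 89.9% fell on Tpm3, a tropomyosin that many cell types also make. Per length, slow fibre genes other than Tpm3 held between 0.903% (d-SMG, day 3) and 3.11% (s-GAG, day 3) of the summed FPKM of both fibre classes.

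**Figure D1:**
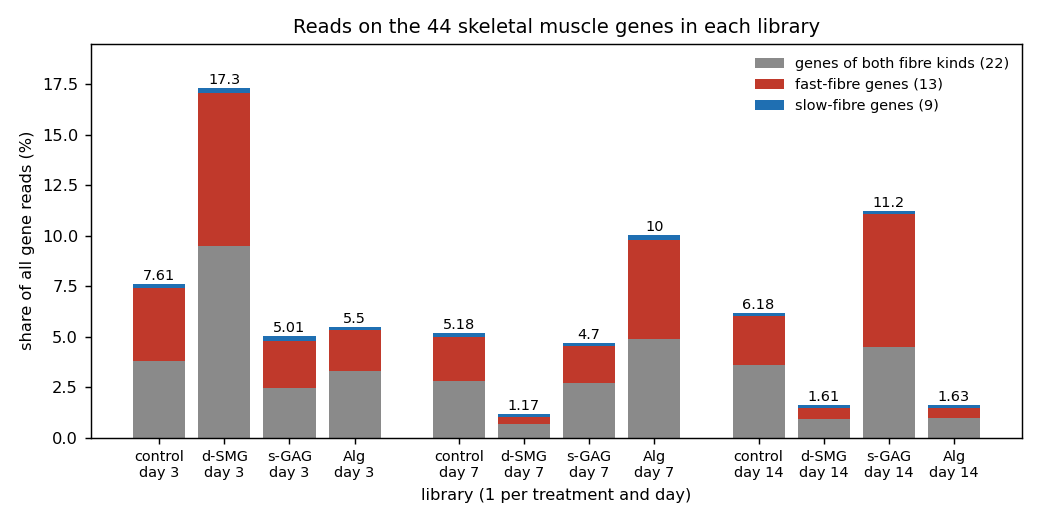
Share of all gene reads (%) that fell on the 44 skeletal muscle genes in each of the 12 libraries, with grey, red, and blue bars for genes of both fibre kinds, fast fibre genes, and slow fibre genes. The share was largest with d-SMG on day 3 (17.3%), with Alg on day 7 (10.04%), and with s-GAG on day 14 (11.2%).

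Most of the 44 genes had their highest and lowest levels in the same libraries. On day 3, the d-SMG library was the highest of the 4 for 38 of 44 genes, compared with 31.2% of all genes. By day 7 the same treatment was the lowest for 43 of 44 genes (21.6% of all genes), and Alg was the highest for 40 (25.1%). On day 14, s-GAG was the highest for 28 genes (36.4%), and d-SMG or Alg was the lowest for 40 (31.9%). Over the 12 libraries, 33 genes had their highest level in the d-SMG library of day 3 (15.2% of 19964 genes) and 28 had their lowest in that of day 7 (6.697%). All 44 genes had reads, 42 of them in every library and 41 with at least 10 reads in every library. The genes that followed the group least were Myl2, Myl3, Tpm3, Neb, and Tnnt1, whose log2 distance to the median gene had an SD over the libraries between 1.54 and 2.89, and Tnnt3 followed it most closely (SD 0.30).

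**Figure D2:**
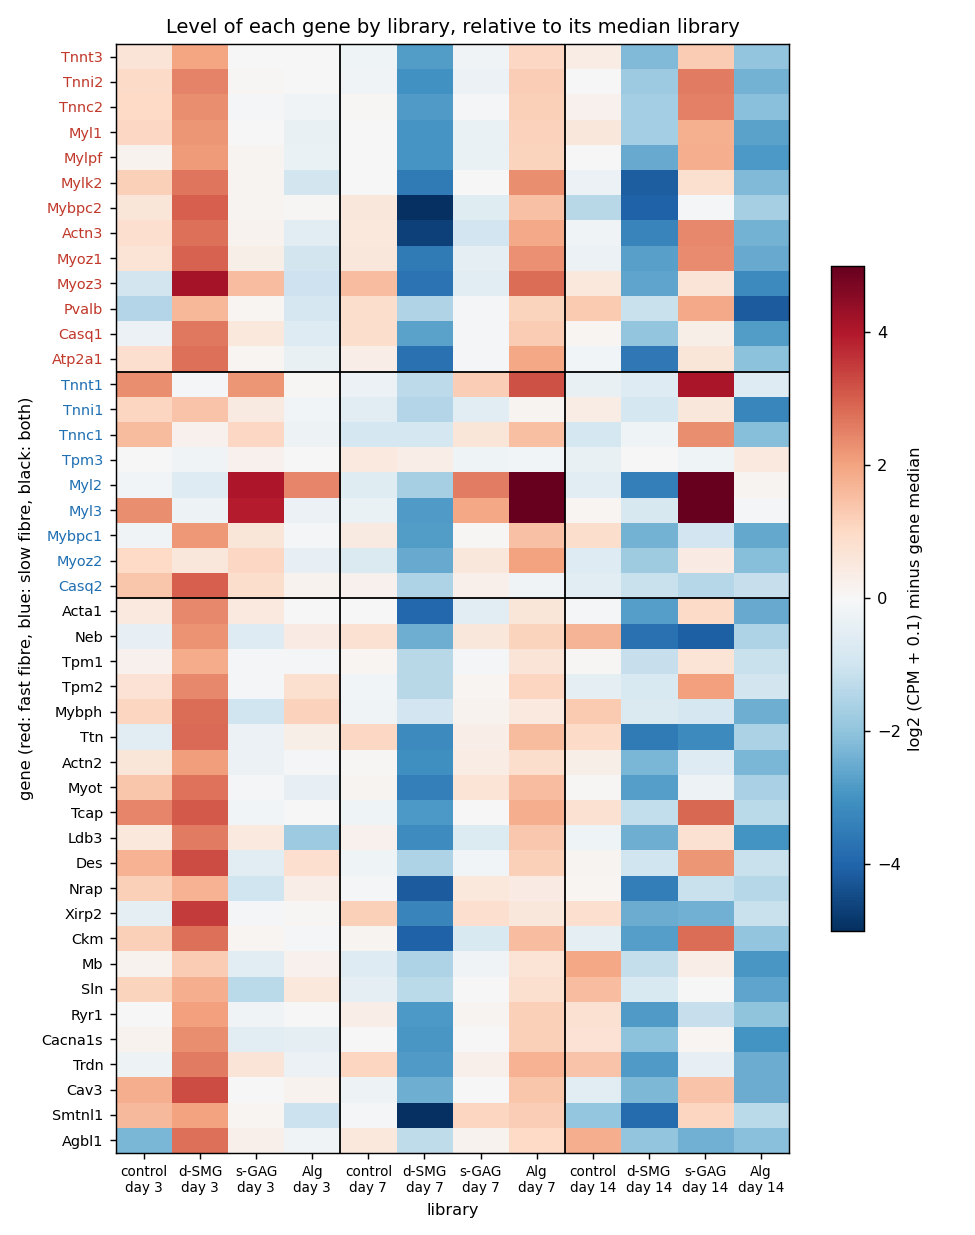
Level of each of the 44 genes (rows) in each library (columns, by day), as log2 of CPM plus 0.1, minus the median of the gene over the libraries, with colours limited to 5 in either direction. The column of d-SMG on day 3 is red and that of d-SMG on day 7 is blue for nearly all fast fibre genes, whereas Myl2 and Myl3 are high with s-GAG and with Alg on day 7.

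Levels of single genes are given below in CPM, always in the order control, d-SMG, s-GAG, and Alg within a day.

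Among thin filament genes, the fast troponins and Tnni1 had the same highest library on each day, and the other slow members had not. Acta1, the skeletal alpha-actin of the thin filament, read 3428, 13066, 3439.8, and 2450.3 on day 3, 2474, 160.4, 1721, and 3737 on day 7, then 2308, 362, 4747, and 431 on day 14. Its d-SMG value was the highest of day 3 and the lowest of day 7, and on day 14 both d-SMG and Alg lay far below control. Tnnt3, fast troponin T, which ties the troponin complex to tropomyosin, read 9169, 22566, 5702, and 5903 on day 3, 4982, 836, 5195, and 11860.5 on day 7, then 7588, 1273, 13884, and 1469 on day 14. Tnni2, fast troponin I, the inhibitory subunit, read 3911, 11488, 2117, and 1989 on day 3, 1812, 252, 1684, and 4746 on day 7, then 2086, 575, 12359, and 397 on day 14. Tnnc2, the fast troponin C that binds calcium, read 13348, 33626, 6255, and 5971 on day 3, 6851, 948, 6486, and 15273 on day 7, then 7671, 2076, 38069, and 1553 on day 14. All 3 fast troponin genes were highest with d-SMG on day 3, with Alg on day 7, and with s-GAG on day 14. Of the slow paralogs, Tnni1 had the same highest libraries, whereas Tnnt1 and Tnnc1 differed from it on day 3. Tnnt1, slow troponin T, read 238, 46.2, 220.2, and 49.2 on day 3, 39.3, 19.2, 111, and 439.8 on day 7, then 36.8, 30.4, 807, and 30.1 on day 14. On day 3 it was low with d-SMG and Alg and high in control and s-GAG, and the s-GAG library of day 14 was its highest. Tnni1, slow troponin I, read 86.7, 111, 55.3, and 37.3 on day 3, 28.3, 14.9, 28.6, and 44.9 on day 7, then 53.6, 22.3, 61.2, and 4.16 on day 14. Tnnc1, the troponin C of slow and cardiac muscle, read 87.8, 34.5, 60.1, and 24.6 on day 3, 15.99, 15.9, 44.6, and 83.2 on day 7, then 16.05, 24.97, 147, and 6.68 on day 14. Both Tnnt1 and Tnnc1 were highest in control on day 3. Neb, nebulin, which runs along the thin filament, read 2183, 13664, 1851, and 3889 on day 3, 4949, 540.4, 4327, and 6348 on day 7, then 9443, 219.7, 174, and 1009.8 on day 14. Nebulin was lower in the s-GAG library of day 14 than in any other library, in which the short thin filament genes were high. Tpm2, beta-tropomyosin, which blocks and frees the myosin sites of actin, read 8839, 28309, 5022, and 9240.2 on day 3, 4828, 2032, 5654, and 11120.5 on day 7, then 3786, 3148, 22193, and 2857 on day 14. Tpm1 followed Tpm2 with a smaller spread, from 1451 to 13463. Tpm3 stayed between 694 and 1261 in all libraries, a narrower range than that of any other of the 44 genes.

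Among thick filament genes, the fast light chains followed the troponins and the slow light chains were the most variable of all 44 genes. Mylpf, the fast regulatory light chain of myosin, read 1125, 4399, 1109, and 789.6 on day 3, 1025, 130.3, 793, and 2171 on day 7, then 986, 175, 3555, and 136 on day 14. Myl1, the fast essential light chain, read 2750.3, 6194, 1303, and 1036 on day 3, 1371, 174, 1066, and 2986 on day 7, then 1968, 410.3, 4606, and 211 on day 14. Both were highest with d-SMG, Alg, and s-GAG on day 3, 7, and 14, respectively, and lowest with d-SMG on day 7. Myl2, the regulatory light chain of slow and ventricular muscle, read 0.893, 0.583, 17.8, and 5.83 on day 3, 0.6097, 0.239, 6.19, and 56.1 on day 7, then 0.6303, 0, 78.9, and 1.07 on day 14. These values rest on 21, 7, 314, and 118 reads on day 3, on 9, 5, 243, and 846 on day 7, and on 13, 0, 1215, and 17 on day 14. On every day, Myl2 was thus higher with s-GAG and with Alg than in control and with d-SMG, although on day 14 the Alg and control counts of 17 and 13 were close. The count of 0 allows a level of up to 0.188 CPM, taken at 3 reads. Myl3, the essential light chain of slow and ventricular muscle, read 3.49, 0.499, 10.8, and 0.494 on day 3, 0.474, 0, 2.62, and 34.2 on day 7, then 0.679, 0.313, 110.3, and 0.567 on day 14. Myl3 was near 0 in all d-SMG libraries, with 6, 0, and 5 reads, and the count of 0 allows up to 0.143. Control on day 7 and 14 (0.474 and 0.679) and Alg on day 3 and 14 (0.494 and 0.567) were similarly low. Mybpc2, fast myosin-binding protein C, which spans the thick and thin filaments, read 1446, 7517, 1053, and 979.8 on day 3, 1414, 15.4, 633, and 2638 on day 7, then 365, 57.9, 923, and 297 on day 14. Its slow paralog Mybpc1 read 399, 2003, 673, and 426 on day 3, 618, 64.99, 468, and 1237 on day 7, then 819.8, 85.7, 228, and 75.6 on day 14. Mybpc1, although assigned to slow fibres, was high and low in the same d-SMG libraries as the fast genes. Ttn, titin, the molecular spring of the sarcomere, read 991, 10323, 1189, and 1816 on day 3, 3051, 163, 1861, and 4447 on day 7, then 2878, 127, 161, and 484 on day 14. As with nebulin, the s-GAG library of day 14 was among the lowest for titin, and the Alg library of day 14 was nearer to them than to control. Mylk2, the kinase of the skeletal regulatory light chain, ranged from 5.88 to 679, and Mybph, a myosin-binding protein of the H type, from 9.08 to 341.

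Z disc and attachment genes, which anchor thin filaments and link the myofibril to the membrane, again had d-SMG as the highest library of day 3 in 10 of 11 genes, all but Myoz2. Myoz1, a calcineurin-binding Z disc protein of fast fibres, read 235, 1112, 176, and 76.6 on day 3, 214, 12.4, 104, and 701 on day 7, then 120.04, 22.2, 744, and 25.1 on day 14. Myoz2, its slow and cardiac paralog, read 28.1, 20.8, 29.1, and 10.4 on day 3, 8.54, 2.39, 21.1, and 57.7 on day 7, then 8.87, 4.07, 18.96, and 3.15 on day 14. Myoz2 was not raised with d-SMG on day 3, in contrast to Myoz1. Myoz3, a further fast paralog, read 5.48, 188, 30.9, and 5.13 on day 3, 30.8, 0.717, 7.31, and 73.7 on day 7, then 15.1, 1.63, 16.4, and 1.07 on day 14. It showed a wide spread, with the d-SMG libraries of day 3 and 7 as its extremes. Tcap, telethonin, which caps titin at the Z disc, read 5320.3, 8300.1, 891, and 975 on day 3, 849, 135, 981, and 3450.00 on day 7, then 1668, 419, 7139, and 388 on day 14. Telethonin in control was higher on day 3 than on day 7 and 14, so that s-GAG and Alg lay below control on day 3 and above it on day 7. The other members of this role were Actn2 and Actn3, the muscle alpha-actinins, Des, the intermediate filament desmin, Ldb3 and Myot, which bind alpha-actinin, Nrap of the myotendinous junction, and Xirp2, which binds actin. All 7 were highest with d-SMG on day 3 and lowest with d-SMG on day 7, although for Ldb3 the latter (8.18) differed little from Alg on day 14 (9.08).

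Energy and oxygen genes went the same way against control with d-SMG on every day but parted in some pairs of the other dressings. Ckm, the muscle creatine kinase that buffers ATP, read 2113, 6155, 992, and 857 on day 3, 1027, 56.04, 545, and 2669 on day 7, then 677, 135, 6459.8, and 237 on day 14. Myoglobin (Mb) stood at 2535 in control on day 14, its highest library, against 840.4 with s-GAG and 88.5 with Alg. Thus creatine kinase was higher than control with s-GAG on day 14 and myoglobin was lower. With s-GAG on day 7 Ckm differed from control by -0.91 and Mb by 0.49 (log2), and with Alg on day 3 by -1.30 and 0.04.

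All 9 calcium and membrane genes were higher with d-SMG than in control on day 3 and lower on day 7. Casq1, the fast calsequestrin that stores calcium in the reticulum, read 189, 1441, 331, and 148 on day 3, 420.3, 36.3, 217, and 555 on day 7, then 243, 59.1, 284, and 33.3 on day 14. Casq2, the slow and cardiac calsequestrin, read 116, 360.05, 82.9, and 50.4 on day 3, 51.96, 15.3, 53.4, and 39.98 on day 7, then 31.2, 20.5, 16.8, and 20.2 on day 14. Casq2 was lower on day 14 than on day 3 under each of the 4 treatments. Pvalb, parvalbumin, a soluble calcium buffer of fast fibres, read 94.02, 821, 275, and 145 on day 3, 479.8, 90.1, 242, and 562 on day 7, then 641, 121, 961, and 14.4 on day 14. Control was the lowest library of day 3, as it was for 4 other members, namely Mybpc1, Ttn, Xirp2, and Agbl1. Sln, sarcolipin, which restrains the calcium pump, read 44.3, 70.5, 7.94, and 28.98 on day 3, 14.7, 7.84, 19.9, and 34.9 on day 7, then 59.3, 12.02, 20.5, and 3.15 on day 14. Sarcolipin was highest with d-SMG on day 3, control on day 14 came second, and Alg on day 14 was lowest. Cav3, the muscle caveolin, read 72.2, 194, 20.7, and 23.3 on day 3, 17.00, 3.68, 20.1, and 53.96 on day 7, then 13.9, 4.26, 55.7, and 3.59 on day 14. The fast calcium pump Atp2a1 ranged from 73.7 to 6619, the ryanodine receptor Ryr1 from 184 to 5507, the voltage sensor Cacna1s from 18.2 to 718, and triadin (Trdn), which ties the receptor to calsequestrin, from 27.9 to 1206. All 4 were highest with d-SMG on day 3. Of the remaining 2 genes, Smtnl1, a smoothelin-like protein, read 891, 1154, 305, and 138 on day 3, 270.03, 3.395, 609, and 669.5 on day 7, then 75.5, 20.1, 613, and 114 on day 14. Agbl1, a carboxypeptidase of the tubulin deglutamylase family, read 0.638, 24.4, 4.25, and 3.11 on day 3, 5.08, 1.39, 3.998, and 7.16 on day 7, then 12.6, 0.814, 0.584, and 0.756 on day 14. Agbl1 was low throughout, with 9 to 293 reads, and Smtnl1 had its lowest value with d-SMG on day 7. How reads that match several genes were counted is not stated in the sources used here, which touches Acta1 and the tropomyosins with their close paralogs.

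To compare each dressing with control on the same day, the log2 ratio of normalized reads was taken for genes with at least 10 reads in the pair, and a gene was counted at 4-fold or more. These single-library differences carry no p-value because nothing replicates them within a day, and the 3 dressings of a day share their control library. With d-SMG on day 3, 14 members were at least 4-fold higher and 2 at least 4-fold lower of 44, against 2.56% higher and 6.4% lower (8.96% in either direction) of 15846 genes. The median difference of the members was 1.59 against 0.01 for all genes. All 13 fast genes were higher (median 1.92) and so were all 22 genes of both kinds (median 1.65), whereas 3 of 9 slow genes were higher and 6 lower (median -0.43). The differences ranged up to 5.21 for Agbl1 and 5.10 for Myoz3 (counting interval 4.85 to 5.37), followed by Xirp2 (3.96), Ttn (3.38), Pvalb (3.13), and Casq1 (2.93). At the other end, Myl3 (-2.70, from 6 and 82 reads) and Tnnt1 (-2.36, counting interval -2.49 to -2.24) were at least 4-fold lower, and the slow genes that were higher were Mybpc1 (2.33), Casq2 (1.63), and Tnni1 (0.36). Keratinocyte markers were at least 4-fold lower in this library in 13 of 13 genes tested, and the part of tissue composition in the muscle values was not tested. Scaled by library size alone, the median of all genes was -0.45. Then 10 members in place of 16 passed 4-fold, 8 of them higher, against 1621 of 15846 genes, 221 of them higher. Over all 9 pairs, this scaling placed the median of all genes between -0.48 and 0.31.

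On day 7 the direction with d-SMG was the opposite. Of 43 members tested, 29 were at least 4-fold lower and none was higher, against 1.98% higher and 1.91% lower (3.89% in either direction) of 16164 genes, and the median was -2.98 against 0.02. All 13 fast genes passed 4-fold (median -3.53), from Pvalb (-2.41) to Mybpc2 (-6.52), which stood at 1414 CPM in control and 15.4 with d-SMG. Of 8 slow genes tested, 1, Mybpc1 (-3.25), passed it, and their median was -1.16, with Tnnc1 at -0.01 and Tpm3 at -0.13. Smtnl1 (-6.30), Myoz3 (-5.38), and Actn3 (-5.18) were the next lowest. Myl3 had 0 reads against 7, which is 3.31-fold lower with the 0 taken as 3 reads and the 7 as exact. On day 14, 29 of 44 members were at least 4-fold lower and none was higher, against 3.1% higher and 5.39% lower (8.49% in either direction) of all genes, and the median was -2.42. The median of all genes lay between -0.09 and 0.04 in all 9 pairs. Here Neb (-5.43), Ttn (-4.51), and Trdn (-4.26) were among the lowest, while Tnnc1 (0.64) and Tpm3 (0.41) were above control. Differences of this pair also fell with transcript length. With that trend removed, 34 members were at least 4-fold lower, against 1339 of 16395 genes past 4-fold, 456 of them higher. Myl2 is among the 29, but it had 0 reads with d-SMG. With the 0 taken as 3 reads and the 13 reads of control as exact, its level was 3.36-fold lower. The counting error of control is not part of these values of Myl2 and Myl3. Between day 3 and day 7, 38 of 43 members went from above to below control, 13 of them 4-fold in both directions, against 30.6% and 0.666% of 15314 genes, respectively. At least 4-fold lower on both day 7 and day 14 were 24 of 43 members, against 1.18% of 15676 genes.

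With s-GAG, 8 of 44 members passed 4-fold on day 3 and 3 on day 7. On day 3, 3 members were at least 4-fold higher, namely Myl2 (4.29), Agbl1 (2.70), and Myoz3 (2.49), and 5 were lower, namely Tcap (-2.58), Sln (-2.48), Des (-2.31), Nrap (-2.18), and Mybph (-2.07), against 4.69% higher and 2.4% lower (7.09% in either direction) of all genes. The members' median was -0.52. With the length trend removed, 4 were higher and 4 lower, against 1113 of 16426 genes past 4-fold, 774 of them higher. On day 7, Myl2 (3.27) and Myl3 (2.37) were higher and Myoz3 (-2.07) was lower, against 5.51% higher and 3.69% lower (9.2% in either direction) of all genes. These shares are near those among the members. The other slow genes Tnnt1 (1.503), Tnnc1 (1.48), and Myoz2 (1.30) were also above control, and 11 of 13 fast genes were below it (median -0.41). On day 14, 14 members were at least 4-fold higher and 5 lower, against 10.5% higher and 14.8% lower (25.3% in either direction) of 16517 genes. All 13 fast genes were higher (median 1.23). The highest differences were those of Myl3 (7.29, counting interval 6.59 to 8.22), Myl2 (6.91, 6.19 to 7.88), Tnnt1 (4.45), Ckm (3.25), and Tnnc1 (3.19), and the lowest those of Neb (-5.76), Agbl1 (-4.36), Ttn (-4.16), and Xirp2 (-3.25). Scaled by library size alone, the split was 10 higher and 8 lower, against 4424 of 16517 genes past 4-fold, 1094 of them higher. With the length trend removed it was 6 and 6, against 3140 genes, 1238 of them higher.

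Alg libraries changed direction from day to day. On day 3, 2 members were at least 4-fold higher, namely Myl2 (2.68) and Agbl1 (2.25), and 6 were lower, including Myl3 (-2.76), Smtnl1 (-2.69), and Tcap (-2.45), against 2.97% higher and 2.2% lower (5.17% in either direction) of all genes, with a median of -0.66. On day 7, 7 were higher and none was lower, against 2.86% higher and 2.63% lower (5.49% in either direction) of all genes, with a median of 1.17. These were the slow genes Myl2 (6.45), Myl3 (6.07), Tnnt1 (3.48), Myoz2 (2.75), and Tnnc1 (2.38), with Mylk2 (2.33) and Tcap (2.02). Thus 5 of 9 slow, 1 of 13 fast, and 1 of 22 other members passed 4-fold, and all 13 fast genes were above control (median 1.25). On day 14, 25 of 44 were at least 4-fold lower and none was higher, against 3.2% higher and 4.14% lower (7.34% in either direction) of all genes, with a median of -2.28. The lowest were Pvalb (-5.47), Mb (-4.84), and Sln (-4.22), while Tpm3 (0.86), Myl2 (0.75), and Smtnl1 (0.59) were above control. Between day 7 and 14, 39 of 44 members went from above to below control, against 26.2% of 15477 genes.

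**Figure D3:**
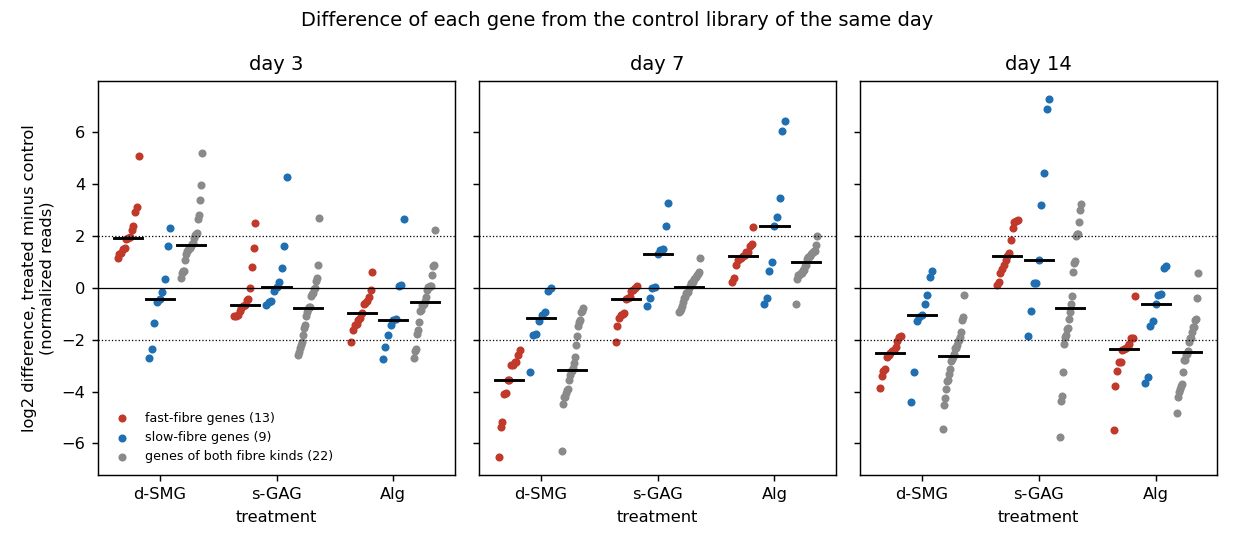
Log2 difference of each gene between a dressed and the control library of the same day (points; red fast, blue slow, grey both fibre kinds), with a black bar at the median of each class and dotted lines at 4-fold. The fast genes of d-SMG lie above 0 on day 3 (median 1.92) and below the lower dotted line on day 7 (median -3.53), and the highest slow genes with s-GAG and Alg are Myl2 and Myl3.

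To follow fast against slow fibre genes free of any scaling between libraries, the log2 ratio of reads was taken for 8 pairs of fast and slow paralogs. The genes of a pair can differ in transcript length. A length trend, such as that of the s-GAG library of day 14, therefore still enters the ratios, and its part was not tested. On day 3, the d-SMG library had the highest ratio in 8 of 8 pairs, and s-GAG had the lowest in 7. No such order held on day 7 or 14, when the highest ratio was found most often in control (5 pairs) and in s-GAG (4 pairs), respectively. The lead of d-SMG on day 3 was very small for Casq1 to Casq2 (2.0003 against 1.9967 with s-GAG). It was also small for Mybpc2 to Mybpc1 (1.91 against 1.86 in control). The Mylpf to Myl2 ratio was 10.27, 12.78, 5.96, and 7.08 on day 3, 10.64, 8.95, 6.999, and 5.27 on day 7, then 10.56, 12.45, 5.49, and 6.95 on day 14 in the same order of treatments. The 6 libraries of control and d-SMG lay between 8.95 and 12.78 and did not overlap with the 6 of s-GAG and Alg, which lay between 5.27 and 7.08. This grouping of treatments was read from the values and was not tested. How often other genes separate in this way was not determined. The Myl1 to Myl3 ratio was 9.62, 13.48, 6.91, and 10.96 on day 3, 11.398, 12.83, 8.66, and 6.45 on day 7, then 11.45, 10.22, 5.38, and 8.46 on day 14. Here the s-GAG libraries (5.38 to 8.66) lay below all control and d-SMG libraries (9.62 to 13.48), whereas Alg overlapped with them. The values of 12.45 for Mylpf to Myl2 (d-SMG, day 14) and 12.83 for Myl1 to Myl3 (d-SMG, day 7) rest on 0 reads of the slow gene. They are set by the 0.5 reads added to each count and are not measured ratios. The Tnnt3 to Tnnt1 ratio was 5.27, 8.93, 4.69, and 6.91 on day 3, 6.99, 5.44, 5.54, and 4.75 on day 7, then 7.69, 5.39, 4.104, and 5.61 on day 14. It was lowest with s-GAG on day 14 and highest with d-SMG on day 3. The Mybpc2 to Mybpc1 ratio was 1.86, 1.91, 0.65, and 1.202 on day 3, 1.195, -2.08, 0.43, and 1.09 on day 7, then -1.17, -0.57, 2.02, and 1.97 on day 14 and turned negative, meaning more reads on the slow paralog, with control on day 14 and with d-SMG on day 7 and 14. The remaining 4 pairs (Tnni2 to Tnni1, Tnnc2 to Tnnc1, Casq1 to Casq2, and Myoz1 to Myoz2) ranged from 4.07 to 7.66, 5.90 to 9.93, 0.70 to 4.08, and 2.30 to 5.74, respectively, with overlapping treatments. Per length, the FPKM of Tnnt3 was 26.7, 339, 17.96, and 83.2 on day 3, 87.96, 30.2, 32.3, and 18.7 on day 7, then 143, 29.03, 11.9, and 33.8 on day 14 times that of Tnnt1. Fast troponin T thus exceeded slow troponin T in every library.

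An exact permutation test of the treatments within days and of the days within treatments was run for each pair, two-sided by construction, with adjustment over the 16 tests. The smallest p was 0.0191 for treatment in the Mylpf to Myl2 pair (adjusted p = 0.306), followed by 0.0868 in the Myl1 to Myl3 pair (adjusted p = 0.694). No pair passed an FDR of 0.05, and the p of the days lay between 0.454 and 0.949. With 1296 arrangements, the test of the days could not have called a single pair on its own after adjustment. The Myl2 and Myl3 ratios of control and d-SMG rest on at most 82 reads of the slow gene.

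**Figure D4:**
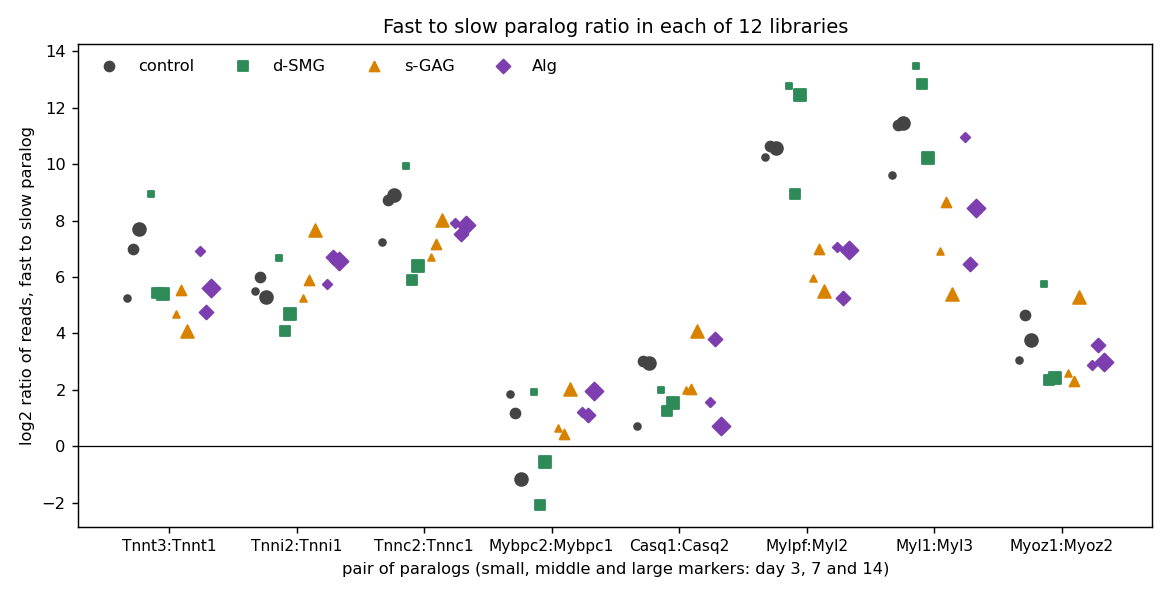
Log2 ratio of reads of the fast to the slow paralog in 8 pairs, 1 point per library, with circles, squares, triangles, and diamonds for control, d-SMG, s-GAG, and Alg and with larger markers for later days. For Mylpf:Myl2 the control and d-SMG points (8.95 to 12.78) sit above the s-GAG and Alg points (5.27 to 7.08). Treatments overlap in the other pairs, except that s-GAG lies below control and d-SMG in Myl1:Myl3. The ratios are not corrected for transcript length. Mylpf:Myl2 with d-SMG on day 14 and Myl1:Myl3 with d-SMG on day 7 rest on 0 reads of the slow gene.

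The differences of the s-GAG library of day 14 followed transcript length, read from the ratio of reads to FPKM. Among genes outside the 44 and 49 other muscle genes, the median difference to control was 1.74 under 1 kb and -1.34 over 8 kb. The members under 1 kb (Mylpf, Tnnc1, Tnni2, and Tnnc2) had a median of 2.44, and those over 8 kb (Neb, Ttn, Xirp2, and Ryr1) of -3.71. The Spearman correlation of length and difference was -0.66 across the 44 members and -0.51 across 13690 genes, which are not independent replicates and share their libraries. With that trend removed, Myl3 was still 5.99 and Myl2 5.61 above control on the log2 scale. In the d-SMG pair of day 3 the order was the reverse and weaker, with medians of -0.19 and 0.33 for other genes and of 1.44 and 3.01 for members in the same classes. Hence the 4 longest members with d-SMG lay above the short ones on day 3 and below them on day 7 (-3.71 against -2.85). Across the members the correlation was -0.56 with d-SMG on day 14, -0.55 with Alg on day 7, and 0.53 with d-SMG on day 3. Across all genes it was -0.31, -0.19, and 0.24 in these pairs. In the remaining pairs the members gave -0.41 to 0.39. The control library of day 14 itself lay at -0.41 under 1 kb and 0.35 over 8 kb. Its part in the trend of the day 14 pairs was not tested.

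**Figure D5:**
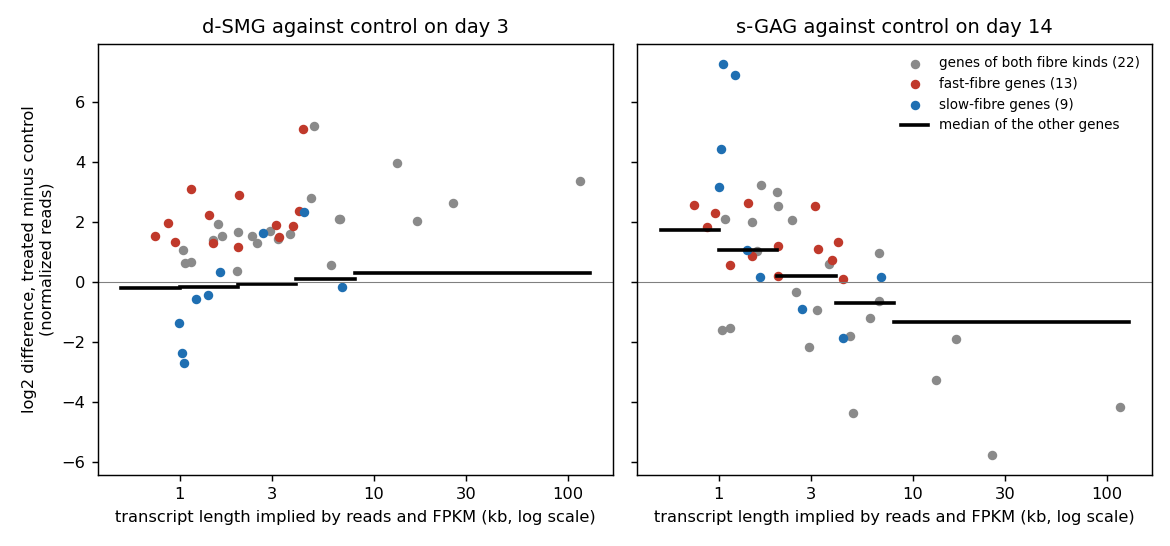
Log2 difference to control of each member against its transcript length in kb (log axis) for d-SMG on day 3 and s-GAG on day 14, with black bars at the median of the other genes in 5 length classes. In the s-GAG pair of day 14 both members and other genes fall with length, from 1.74 to -1.34 for the other genes, while with d-SMG on day 3 all 13 fast genes lie above the bars at every length.

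Treatments were compared over the days, and days over the treatments, with the quasi-likelihood test of edgeR, in which the days or the treatments serve as replicates. No member was called at an FDR of 0.05 in any of the 6 comparisons, and neither was any other gene (0% of 15672 genes for treatments and 0% of 15354 for days). The median of all genes lay between -0.03 and 0.00354 in these comparisons. With d-SMG the median of the members was -0.35, with 12 of 44 above control, and no member had an unadjusted p under 0.05 (1.3% of all genes did). Without the day as a term this median was 0.46, with 32 of 44 above control, and fitted on the control and d-SMG libraries alone it was -1.49, with 1 of 43 above. The value of -0.35 joins the opposite directions of day 3 and of day 7 and 14. Without day 3 the median was -2.66, with 20 members at an unadjusted p under 0.05 (3.74% of 15762 genes), and without day 14 it was 0.63. Myoz3 (0.84) and Tpm2 (0.51) had the highest differences and Myl3 (-2.75) and Neb (-1.95) the lowest.

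With s-GAG the median was 0.31, and 26 members were above control. Myl2 was 5.70 ± 1.66 (SE) higher on the log2 scale (unadjusted p = 0.00701, adjusted p = 0.445) and higher on 3 of 3 days. It was the only member with an unadjusted p under 0.05, compared with 9.07% of all genes. The quasi-likelihood test did not call it, whereas DESeq2 called it as 1 of 44 members, against 1.83% of all genes. Myl3 followed with 4.35 ± 2.30 (unadjusted p = 0.0896), and Neb (-2.77) and Ttn (-2.29) had the lowest differences. Without the s-GAG library of day 14, the median turned to -1.22, with 6 of 44 above control. No member then had an unadjusted p under 0.05, against 1352 of 15995 genes. This fit keeps the control library of day 14, and the s-GAG pairs of day 3 and 7 had medians of -0.52 and -0.09. Without all libraries of day 14 the median was -0.24. With Alg the median was -0.13, with 18 above control. Myl2 was 4.39 ± 1.67 higher (unadjusted p = 0.0266, adjusted p = 0.9999), on 3 of 3 days, and 2.99% of all genes had an unadjusted p under 0.05. DESeq2 called it as 1 of 44 members, against 0.555% of all genes. Myl3 (3.07) was next, and Neb (-1.73) and Agbl1 (-1.64) were lowest. Without day 7 the Alg median was -1.79.

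Between days, the medians of the members were lower at later times, without any call. The median was -0.80 for day 7 against day 3, -0.68 for day 14 against day 7, and -1.65 for day 14 against day 3, and in the last comparison 41 of 44 members were lower. Casq2 was 2.59 ± 0.65 (SE) lower on day 14 than on day 3 (log2 difference -2.59, unadjusted p = 0.0029, adjusted p = 0.895), lower under 4 of 4 treatments, and DESeq2 called it as 1 of 44 members, against 0.247% of all genes. It was the only member with an unadjusted p under 0.05 there, against 4.79% of all genes, and on day 7 against day 3 likewise (-1.64, unadjusted p = 0.0319, adjusted p = 0.999, against 1.64%). In the step from day 7 to day 14 no member reached it, against 2.83%. From day 3 to 7, Myl2 (0.83) and Pvalb (0.27) had the highest differences and Tcap (-1.97) and Cav3 (-1.82) the lowest. From day 7 to 14, these were Myl3 (0.61) and Tcap (0.52), and Ttn (-2.14) and Neb (-1.96). From day 3 to 14, they were Myl3 (0.47) and Pvalb (0.10), and Smtnl1 (-2.98) and Mybpc2 (-2.89). The lower level on day 7 than on day 3 rested on the d-SMG wounds, without which the median was 0.42 with 34 of 44 members higher, and that from day 7 to 14 turned to 0.48 without Alg. From day 3 to 14 the median was -0.27 without d-SMG and -2.26 without the s-GAG library of day 14.

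Other muscle genes were close to the members in the d-SMG pairs but not in every pair. Of 49 further skeletal muscle genes, 48 were higher with d-SMG on day 3 (median 1.85), 49 were lower on day 7 (median -2.35), and 49 were lower on day 14 (median -2.91). With Alg, 48 were higher on day 7 (median 1.14) and 45 lower on day 14 (median -2.38). With s-GAG on day 14, however, 21 were higher and 28 lower (median -0.40), while 29 of 44 members were higher (median 0.81). Of the 49, 5 were at least 4-fold higher and 14 lower, against 10.5% and 14.8% of all genes. The length trend of this library was not removed here. Myh7, the slow myosin heavy chain, differed from control by -2.67, 1.48, and -3.06 (log2) with d-SMG, s-GAG, and Alg on day 3, by -2.54, 5.13, and 8.56 on day 7, then by -3.49, 5.67, and 0.62 on day 14. It was thus high in the same libraries of day 7 and 14 as Myl2 and Myl3, but in the Alg library of day 3 Myl2 was above control and Myh7 below. None of the 49 was called over the days in any treatment. Genes of satellite cells and regenerating fibres, which include Pax7, Myod1, and embryonic myosin, did not go with the members in the d-SMG pair of day 3. There 6 of 12 were higher and 6 lower (median 0.05). In the other pairs of day 3 their medians had the direction of the member medians (-0.52 with s-GAG and -0.66 with Alg). With s-GAG 10 of 12 were lower (median -2.10), and with Alg 11 of 12 (median -0.56). On day 14, all 12 were lower with d-SMG (median -2.72), with s-GAG (median -4.01), and with Alg (median -3.63), 3 pairs that share 1 control library. Of 10 heart muscle markers, Myl7, Nppa, Mybpc3, and Tnni3 stayed at or below 0.844 CPM in every library, and Ryr2 and Nppb reached 2.27 and 12.1. Myh6, the alpha myosin heavy chain, reached 72.2 with s-GAG on day 14 and 27.9 with Alg on day 7, the libraries in which Myl2 and Myl3 were highest too. Actc1, Tnnt2, and Myl4, which immature skeletal muscle also makes, reached 641, 1654, and 153, and the summed level of the list lay between 257 and 2154. Smooth muscle markers, whose sum lay between 2248 and 6962, had medians within 0.81 of control in every pair. Hair follicle markers were higher than control in 15 of 15 genes with d-SMG on day 7 (median 5.78), where the members were lowest, and with s-GAG on the same day (median 6.82), where the median of the members was -0.09. With Alg on day 7, fibroblast and macrophage markers were each lower than control in 10 of 10 genes (medians -1.99 and -1.90). With s-GAG on that day they were lower in 9 and 10 of 10 genes, respectively (medians -2.08 and -1.35). The part of these cell types in the muscle values was not tested.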

How the data were processed

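The authors deposited read counts of 25620 genes as whole numbers without normalization, and FPKM values, that is, fragments scaled by gene length and by library total. The submitters' notes name bcl2fastq, FastQC, TopHat2, and edgeR without versions. The genome build and the counting tool are not given in the sources used here. One further column of values in each of the 2 tables (1 per table) matches no described sample and was not used.

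The 44 members, the gene lists, and the tests were chosen with earlier results of these data known. Counts were scaled by TMM and fitted in edgeR 4.0.16 (R 4.3.3) by its quasi-likelihood test, the model holding treatment and day over 12 libraries and the genes that pass filterByExpr, and p-values were adjusted after Benjamini-Hochberg (FDR 0.05). Single-day pairs, with 1 library per group, received a log2 ratio with a prior of 0.5 reads, a minimum of 10 reads in the pair, exact binomial counting intervals (95%), and no p-value. Paralog ratios used reads plus 0.5 and exact permutation tests. A count of 0 was bounded at 3 reads. Scripts were tested on simulated data. Values in every library are printed for the 8 pairs, for Acta1, Ckm, Sln, and Pvalb, and for the 2 members with the largest rise and the 2 with the largest fall in each comparison over days or treatments, and Cav3 and Tcap belong to these. Library totals of 13748887 to 38302461 reads set the counting error. The alternatives were RLE factors, library size, TMM without muscle genes, DESeq2 1.42.0, other filters, other sample choices, an exact test of edgeR at an assumed biological variation, FPKM with a pseudocount of 1 or 0.1, and, added after the data were seen, removal of the length trend and of the s-GAG library of day 14. Figures were drawn with matplotlib 3.10.9.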

Additional observations from a re-analysis of the deposited data

Results flagged for a closer look

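The direction of the median member difference to control changed between days within each dressing, and these changes were not tested, since each day has 1 library per treatment. With d-SMG the median went from 1.59 on day 3 to -2.98 on day 7, a change of -4.56, and to -2.42 on day 14, a change of -4.01 from day 3. With s-GAG it went from -0.52 on day 3 and -0.09 on day 7 to 0.81 on day 14, changes of 1.33 and 0.90. With Alg it went from -0.66 on day 3 to 1.17 on day 7, a change of 1.83, and to -2.28 on day 14, a change of -3.45 from day 7.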

How the results depend on the processing

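Of 146 recomputed counts, 80 were 0 as was the reported one, which says nothing about stability, and of the other 66 counts 57 stayed within 1.5 times the reported one. DESeq2 called 1 member where the quasi-likelihood test called 0, for s-GAG and for Alg over the days (Myl2 in both) and for day 14 against day 3 (Casq2), among 287, 87, and 38 genes called in all. For d-SMG on day 3, the members past 4-fold numbered 16, but 10 with library size only and 9 with FPKM and a pseudocount of 1. Of 15846 genes, 1420, 1621, and 371 passed it, respectively. That FPKM setting gave 5 in place of 8 for s-GAG on day 3, 1 in place of 3 for s-GAG on day 7, and 3 in place of 8 for Alg on day 3. All genes past 4-fold in these pairs numbered 226, 316, and 159 under that setting, in place of 1165, 1552, and 852. With the length trend removed, s-GAG on day 14 had 12 members in place of 19, and 3140 in place of 4180 of all genes. Leaving out each day or treatment gave 0 called members in the 6 comparisons, as before, but the member median ranged from -2.66 to 0.63 with d-SMG, from -0.24 to 0.57 with s-GAG, from -1.79 to 0.52 with Alg, from -2.14 to 0.42 for day 7 against day 3, from -1.26 to 0.48 for day 14 against day 7, and from -2.46 to -0.27 for day 14 against day 3. With a day or treatment left out, the permutation tests of the paralog ratios had too few arrangements for a single pair to pass. The day served as the replicate block of the treatment comparisons. Fits without that block called 0 members as well, but the median moved from -0.35 to 0.46 with d-SMG, from 0.31 to 0.03 with s-GAG, and from -0.13 to -0.21 with Alg, and the cause was not tested. For genes with few reads, such as Myl2 and Myl3 in the control and d-SMG libraries and Myl3 with Alg on day 3 and 14, depth limits the ratios.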
